A study of Mus musculus with 22 samples.

Results

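Among 12 wild type (WT) biopsies labelled as primary motor cortex (M1), 3 held far more Hap1 RNA than the rest, and these Hap1-high biopsies are described here against the other 9. The members were chosen on the data: a biopsy belonged to the Hap1-high set when its log2(CPM+1) of Hap1 was 7 or more, where CPM is the reads of a gene per 1000000 reads on genes. The rule took the right and left biopsies of WT mouse 1 (WT right 1, WT left 1) and the left biopsy of WT mouse 2 (WT left 2), 3 of the 22 biopsies of the series. The 3 biopsies therefore come from 2 mice, and the right biopsy of WT mouse 2 is in the other set. Because expression made the sets, no gene was tested between them, and every difference between the 3 and the 9 is a description of these libraries.

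The series compared 6 WT mice with 5 BERKO mice, whose label is ERb-/- and which lack estrogen receptor beta, in male C57BL/6 animals aged 16 to 20 weeks. Left and right M1 of each mouse were sampled by needle puncture, and 10 ng of RNA per biopsy entered STRT sequencing, which counts transcripts at their 5' ends, in 3 lanes (1 for the left biopsy of BERKO mouse 5 in the counts used here). The labels name no treatment, and nothing in them marks the 3 biopsies as handled differently.

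Neurons of each brain region carry a characteristic set of transcription factors, peptides, channels and signalling proteins, so a small tissue sample can be read through the genes that mark its regions. In rodents, Hap1 (huntingtin-associated protein 1, a trafficking adaptor that marks the stigmoid body) is best known from hypothalamus, preoptic area, septum and amygdala. Motor cortex is read instead through layer and interneuron genes such as Cux2, Lamp5, Fezf2 and Pvalb. In bulk tissue, fewer cells of a type and less RNA per cell cannot be told apart, and this holds for every difference given here.

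Since the assay counts 5' ends, the bases just upstream of an annotated start are shown for 6 of the genes that separate the 2 sets, 5 higher and 1 (Tshz2) lower in the Hap1-high biopsies. They are the 100 bases before the RefSeq start in GRCm38.p6, a different build from the mm9 of the deposited features, read 5' to 3' on the gene's strand. Of the 66 named genes whose values did not overlap between the sets, 50 were in the RefSeq promoter table. For Hap1 the more upstream of its 2 listed starts was used. For Tshz2, 85.0% of WT reads came from a feature inside the coding sequence (mm9 position 169711795). Its window before the annotated start is therefore not the one just upstream of most of its counted 5' ends. Capitals mark matches to GGGCGG on either strand (the GC box).
Hap1, chr11:100356142-100356241, minus strand: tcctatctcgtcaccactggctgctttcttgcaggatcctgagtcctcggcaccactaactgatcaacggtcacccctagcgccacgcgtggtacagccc
Zcchc12, chrX:36195804-36195903, plus strand: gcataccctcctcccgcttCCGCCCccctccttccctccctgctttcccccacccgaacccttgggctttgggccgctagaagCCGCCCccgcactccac
Nnat, chr2:157559978-157560077, plus strand: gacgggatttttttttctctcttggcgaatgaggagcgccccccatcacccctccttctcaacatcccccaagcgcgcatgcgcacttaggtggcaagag
Cartpt, chr13:99900684-99900783, minus strand: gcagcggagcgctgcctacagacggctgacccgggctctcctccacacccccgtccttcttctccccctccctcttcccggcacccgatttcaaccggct
Car12, chr9:66713586-66713685, plus strand: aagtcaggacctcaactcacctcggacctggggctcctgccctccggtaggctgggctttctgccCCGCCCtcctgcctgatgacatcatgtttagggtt
Tshz2, chr2:169632409-169632508, plus strand: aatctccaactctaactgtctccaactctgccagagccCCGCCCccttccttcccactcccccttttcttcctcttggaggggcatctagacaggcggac
GGGCGG was found in the windows of Zcchc12, Car12 and Tshz2, and in 24.7% of all 32851 such windows in the table. Neither TATAAA nor TGACGTCA (the cAMP response element), also searched on both strands, was in any of the 6, against 5.56% and 1.15% of all windows. These are matches of letters and say nothing about which factor binds.

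Hap1 was at 423 CPM in WT right 1, 274 CPM in WT left 1 and 457 CPM in WT left 2. In the other 9 WT biopsies it ran from 16.6 to 59.6 CPM with a median of 32.4. On the log2(CPM+1) scale that the rule used, the lowest of the 3 was at 8.11 and the highest of the other 9 at 5.92, so no WT biopsy lay near the threshold. The means were 385 ± 97.2 CPM (SD, n = 3) and 32.9 ± 12.2 CPM (SD, n = 9), values that chose the sets and are no evidence of a difference. The 10 BERKO biopsies, which the rule did not use, ran from 22.1 to 62.7 CPM, and 0 of the 10 reached the threshold. Most Hap1 reads in WT (71.7%) came from a 5' UTR feature at position 100217401 of the minus strand of chromosome 11 (mm9).

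The other 5 markers listed as high went with Hap1 in all 3 biopsies. Pnck, a calmodulin-dependent protein kinase, was at 877, 1053 and 970.4 CPM in WT right 1, WT left 1 and WT left 2, against 79.7 to 247 CPM (median 150.2) in the other 9. Crym, which encodes mu-crystallin, a thyroid hormone binding protein of the cytosol, was at 629, 437 and 231 CPM against 7.49 to 103 CPM (median 44.5). Both were above every other WT biopsy and every BERKO biopsy, but Crym was nearly 3-fold higher in WT right 1 than in WT left 2 while Pnck was close to level over the 3.

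Zcchc12, a zinc finger transcriptional coactivator, was at 111, 133 and 245 CPM in the 3 (same order) and at 6.24 to 41.8 CPM (median 19.8) in the other 9. Cpne7, a calcium-dependent membrane-binding copine, was at 360.2, 189 and 61.3 CPM against 3.78 to 24.3 CPM (median 9.15). Cartpt, the precursor of the CART peptides, was at 22.7, 84.0 and 236 CPM against 3.36 to 16.3 CPM (median 9.26). Cpne7 and Cartpt ran in opposite orders: WT right 1 was the highest of the 3 for Cpne7 and the lowest for Cartpt. Cartpt is also the marker whose separation was narrowest, and 1 BERKO biopsy, at 30.5 CPM, exceeded WT right 1.

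The 2 remaining markers, Lamp5 and Tshz2, were the low ones. Lamp5, a membrane protein of the LAMP family that is abundant in upper-layer neurons and in a class of cortical interneurons, was at 51.8, 22.4 and 158 CPM in the 3. It ran from 633 to 1388 CPM (median 1097) in the other 9 and from 629 to 1266 CPM in BERKO. Tshz2, a zinc finger transcription factor of cortical projection neurons, had no read in WT right 1 or WT left 1 and 13.0 CPM in WT left 2, against 43.7 to 163 CPM (median 116) in the other 9. The lowest BERKO biopsy had 15.9 CPM of Tshz2, so the gap to the 3 was small there. The first 200 bases of a Tshz2 transcript also occur in other annotated genes, so reads from those bases cannot be given to it with certainty. Whether the sharing covers the coding sequence feature that held 85.0% of its WT reads was not tested.

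**Figure D1:**
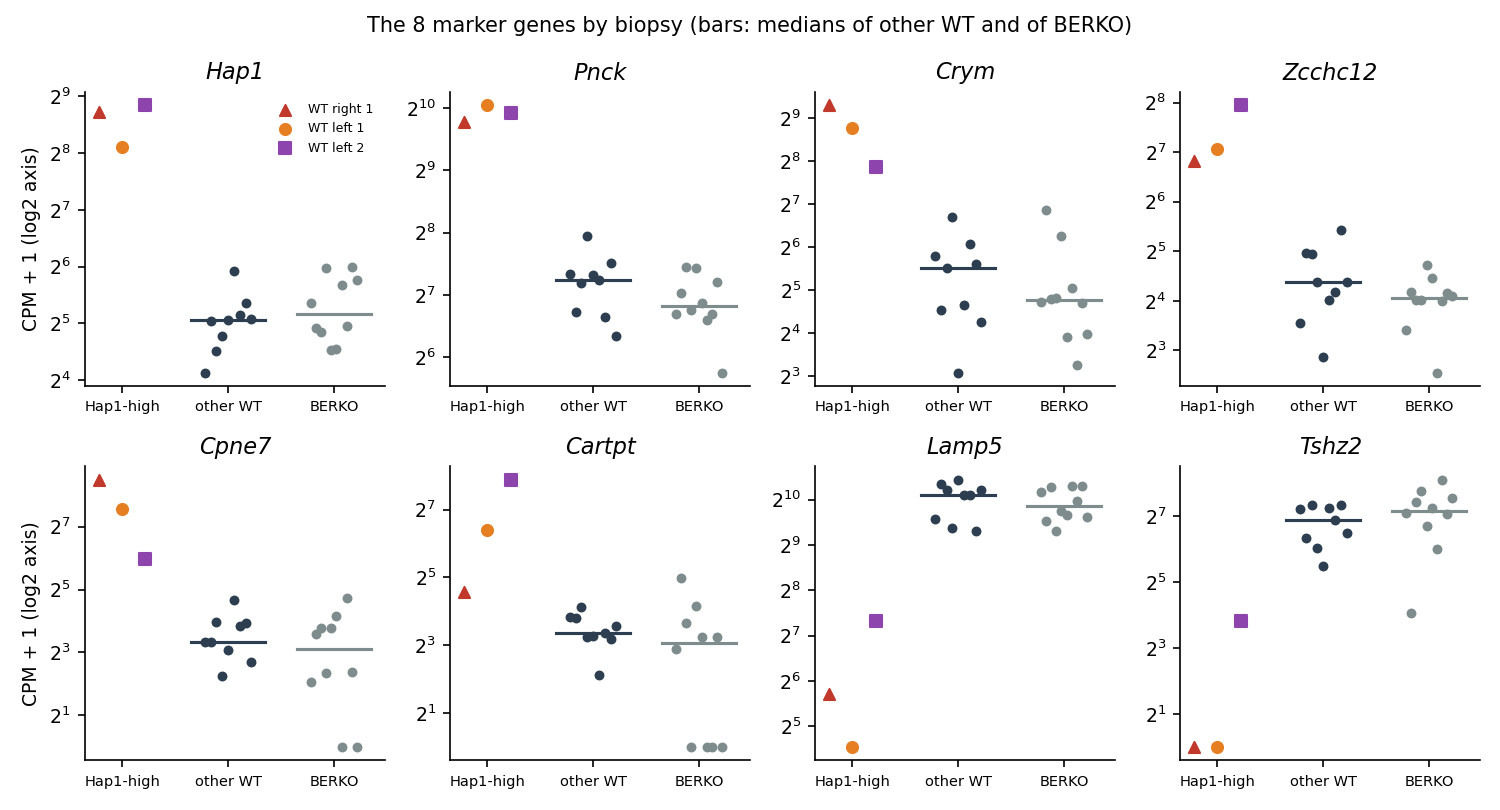
Level of the 8 markers in each biopsy, as CPM + 1 on a log2 axis; triangles, circles and squares are the 3 Hap1-high biopsies, dots the 9 other WT and the 10 BERKO biopsies, and bars the medians of those sets. Hap1 is at 274 to 457 CPM in the 3 and at no more than 62.7 CPM elsewhere, and Lamp5 is at 22.4 to 158 CPM in the 3 and at 629 CPM or more elsewhere.

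Across the whole transcriptome a gene was counted as higher or lower where the 3 and the 9 biopsies did not overlap and the mean log2(CPM+1) differed by 1 or more. By this count 213 of the 13891 genes with a WT read were higher (1.53%) and 197 were lower (1.42%). The median difference over all 13891 genes was -0.0050 (log2). All 8 markers met the count, and since the choice of the sets and of the markers rested on these same values, nothing is read from that. Of the 213 higher genes, 68 had their largest value in WT right 1, 66 in WT left 1 and 79 in WT left 2. The count requires all 3 libraries to lie beyond the other 9. A set supplied by a single library was therefore excluded in advance, and nothing is read from this split.

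**Figure D2:**
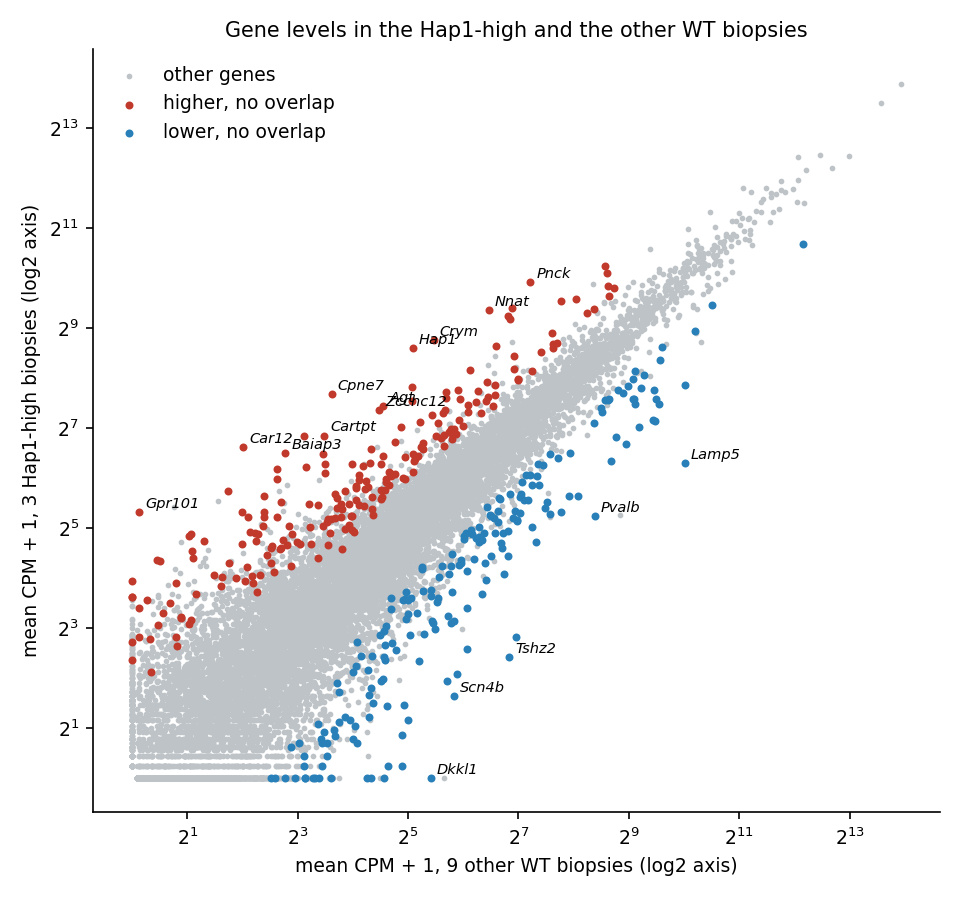
Mean level of each of 13891 genes in the 3 Hap1-high (vertical) and the 9 other WT biopsies (horizontal), as CPM + 1 on log2 axes. The 213 higher and 197 lower genes are coloured, and Pnck, Hap1, Crym and Nnat lie far above the diagonal where Lamp5, Pvalb and Tshz2 lie far below it.

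The largest differences upward included several genes that were nearly unread in the other WT biopsies. Car12, a membrane-bound carbonic anhydrase, was at 111, 81.2 and 100.4 CPM in WT right 1, WT left 1 and WT left 2 against 0 to 16.9 CPM (median 0) in the other 9. Gpr101, an orphan G protein-coupled receptor, was at 10.6, 51.8 and 53.9 CPM, and the highest of the other 9 had 0.828 CPM. Baiap3, a C2-domain protein of the Munc13 family linked to dense-core vesicles, was at 42.3, 46.2 and 180.3 CPM against 0 to 19.6 CPM. For all 3 genes, the 10 BERKO biopsies were below the lowest of the Hap1-high biopsies, with highest values of 13.7, 7.37 and 10.7 CPM.

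Cell surface and matrix genes were among them as well. Cd44, a hyaluronan receptor, was at 119, 71.4 and 22.3 CPM against 0 to 20.8 CPM, a separation that rested on a gap of less than 2 CPM in WT left 2. Col25a1, a transmembrane collagen, was at 36.4, 9.80 and 39.0 CPM against 0 to 3.97 CPM, and 1 BERKO biopsy had 36.6 CPM. Gpc3, a glypican, was at 28.0, 74.2 and 31.6 CPM against 0 to 14.3 CPM. Among signalling genes, Mas1, a G protein-coupled receptor for an angiotensin fragment, was at 87.7, 70.0 and 27.9 CPM against 0 to 10.8 CPM, and Agt, which encodes angiotensinogen and in brain is mainly made by astrocytes, was at 114, 118 and 288 CPM against 7.94 to 66.8 CPM (median 17.5). The intracellular members included Rerg, a Ras-like small GTPase, Arhgap6, a GTPase activating protein, and Rxrg, a retinoid X receptor. Their lowest values in the 3 were 31.6, 28.0 and 18.5 CPM, and their highest values in the other 9 were 13.7, 10.9 and 13.2 CPM.

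Several of the largest differences downward were in genes with no read, or almost none, in the 3 biopsies. Dkkl1, a secreted protein related to the Dickkopf family, had no read in any of the 3, where 3 reads would have been 1.584, 4.199 and 5.577 CPM in WT right 1, WT left 1 and WT left 2, and it ran from 17.5 to 68.6 CPM (median 39.9) in the other 9. Scn4b, a sodium channel beta subunit, was at 6.34 CPM in WT right 1 and had no read in the left biopsies of WT mice 1 and 2, against 14.2 to 93.9 CPM. Syt2, a calcium sensor for fast transmitter release, was at 0.528 CPM in WT right 1 and unread in the same 2 left biopsies, against 12.3 to 41.0 CPM. Kcnk4, a potassium leak channel, had the same distribution, with 0.528 CPM in WT right 1 and 12.4 to 48.1 CPM in the other 9. All 10 BERKO biopsies were above the 3 for Dkkl1, Scn4b, Syt2 and Kcnk4. The noncoding gene 9130024F11Rik, at 0 in all 3 and at 6.62 to 47.0 CPM in the other 9, shares its first 200 bases with another annotated gene, so its reads cannot be given to it with certainty.

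Gene lists of brain regions and cell types were then read by their counts and by the median difference over every member with a WT read. Each list count below is to be set beside the shares of all genes, 1.53% higher and 1.42% lower. The list of hypothalamus, preoptic area and septum had the highest median of the region and cell type lists, with 10 of 29 members higher and 0 lower and a median of 1.34 (log2), beside 1.53% of all genes higher and a median of -0.0050. Its summed level was 3497 CPM in WT right 1, 4261 CPM in WT left 1 and 4486 CPM in WT left 2, against 813 to 1494 CPM in the other 9 and 820.4 to 1048 CPM in BERKO. Hap1, which chose the set, and the markers Zcchc12 and Cartpt are among the 10, and the other 7 were Nnat, Baiap3, Ahi1, Ndn, Resp18, Gpr101 and Trpc4. The count was 7 with spike-in scaling and 10 to 19 under the other alternatives, which were chosen after the data were seen.

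Nnat, a small imprinted membrane proteolipid of developing and hypothalamic neurons, was at 413, 903 and 645 CPM in WT right 1, WT left 1 and WT left 2 against 40.5 to 129.7 CPM (median 98.5). Ahi1, a cilium protein that binds Hap1, was at 728, 559 and 736 CPM against 68.8 to 171 CPM (median 117). Both genes were at least 3-fold above the highest of the other 9 in each of the 3. Resp18, a protein of neuroendocrine secretory granules, was at 748, 1020.5 and 511 CPM against 204 to 388 CPM. Ndn, an imprinted MAGE family gene, was at 804, 953 and 1004 CPM against 284 to 555 CPM. Trpc4, a cation channel, was at 88.2, 40.6 and 40.9 CPM against 1.81 to 39.2 CPM. The separation of Trpc4 was narrow in WT left 1 and WT left 2, where 1 read was worth 1.40 and 1.86 CPM.

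Many other members of the hypothalamic list had few reads or none, which leaves their level undecided. Avp, Agrp, Nr5a1, Sim1, Otp, Nkx2-1, Calcr, Esr1, Cyp19a1, Gabre and Zic2 had no WT read. Oxt, the oxytocin precursor, was at 4.23, 5.60 and 0 CPM in the 3 and reached 16.3 CPM in the other 9, and Pmch, the melanin-concentrating hormone precursor, was at 3.17, 2.80 and 0 CPM and reached 46.3 CPM. Hcrt, the hypocretin precursor, reached 2.80 CPM in the 3 and 128 CPM in the other 9. At these depths 3 reads were worth 1.584 to 5.577 CPM, so low levels of the unread genes were not detectable. Trh, the thyrotropin-releasing hormone precursor, was at 0 and 8.40 CPM in the biopsies of WT mouse 1 and at 117 CPM in WT left 2, and at no more than 6.23 CPM in the other 9.

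Genes known from claustrum, insula and amygdala had 5 of 19 members higher and 0 lower, with a median of 0.92, beside 1.53% of all genes higher. With spike-in scaling 3 members were higher. Synpr, a synaptic vesicle protein, was at 174, 132 and 154 CPM in WT right 1, WT left 1 and WT left 2 against 21.7 to 73.8 CPM (median 37.4). Lypd1, a modulator of nicotinic receptors, was at 276, 157 and 201 CPM against 25.2 to 84.1 CPM, and Lmo3, a LIM-only transcriptional cofactor, was at 49.1, 28.0 and 65.1 CPM against 3.74 to 19.8 CPM. Gng2, a G protein gamma subunit, was the other member beside Nnat. The defining members were less clear: Oprk1, the kappa opioid receptor, was at 3.17, 14.0 and 24.2 CPM against 0 to 4.73 CPM, while Gnb4, at 12.6 to 24.2 CPM in the 3, lay within the range of the other 9. With only upstream and 5' UTR features the median of the list was 0.12.

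The hippocampal list had 3 of 16 members higher (Spink8, Fibcd1 and Cpne7) and 1 lower (Pou3f1), with a median of 1.06. Over all genes 1.53% were higher and 1.42% lower. Cpne7 is among the markers, which were chosen on these same values. Without both biopsies of WT mouse 1 its median was -0.15, so its height rested on that mouse. Without WT left 2 alone, 8 of the 16 were higher and the median was 1.76. Its summed level was 1727 CPM in WT right 1 and 1155 CPM in WT left 1, and 556 CPM in WT left 2, which lay within the 364 to 593 CPM of the other 9. Spink8, a protease inhibitor of the Kazal type, was at 23.2, 49.0 and 11.2 CPM and reached 2.72 CPM in the other 9 and 0 CPM in BERKO. Zbtb20, a zinc finger repressor of hippocampal and glial development, was at 679 and 235 CPM in the biopsies of WT mouse 1, but 128 CPM in WT left 2 was within the 36.2 to 205 CPM of the other 9.

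Genes that pattern cortical areas split in both directions, with 4 of 19 higher, 2 lower and a median of -0.56. The shares of all genes were 1.53% higher and 1.42% lower, and the members Crym and Tshz2 are markers. Nr2f2 (COUP-TFII), a nuclear receptor of caudal and ventral territories and of some interneurons, was at 220.2, 153 and 186 CPM in WT right 1, WT left 1 and WT left 2 against 15.0 to 67.5 CPM (median 27.2), and Lmo3, Crym and Lypd1 were higher too. Part of the Nr2f2 5' end is shared with the noncoding gene B130024G19Rik. Id2, an inhibitor of helix-loop-helix factors, was lower at 178, 122 and 177 CPM against 209 to 500.1 CPM, together with Tshz2.

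Layer genes were called in both directions. Upper layers had 2 of 22 members higher (Cartpt and Kcnip2) and 2 lower (Lamp5 and Pou3f2) with a median of -0.43. Deep layers had 1 higher (Crym) and 1 lower (Tshz2) of 28 with a median of -0.47. The shares of all genes were 1.53% higher and 1.42% lower. Cartpt, Lamp5, Crym and Tshz2 are markers, which were chosen on these same values. Cux2, the upper-layer homeodomain factor, had no read in the 3, but 3 of the other 9 had none either and the highest had 10.9 CPM. Fezf2, which specifies subcerebral projection neurons, was at 21.6, 14.0 and 9.29 CPM against 9.26 to 33.1 CPM and overlapped throughout.

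As a check of the tissue label, general genes of cortical excitatory neurons were present in all 3. Camk2a was at 963, 1114 and 1545 CPM against 849 to 2059 CPM, and Slc17a7, the vesicular glutamate transporter of cortical neurons, was at 94.0, 77.0 and 78.1 CPM against 75.8 to 140.2 CPM. Mef2c, an activity-dependent transcription factor, was at 228 and 238 CPM in the biopsies of WT mouse 1, below the 733 to 1735 CPM of the other 9, and at 796 CPM in WT left 2. Of the 15 members 1 was higher (Neurod1) and 0 were lower, with a median of -0.14. The label of motor cortex thus had its general excitatory markers in the 3 biopsies but few of the Lamp5 reads of the other 9, and the set is called by its rule.

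Inhibitory neuron genes were divided, with 4 of 24 members higher, 4 lower and a median of 0.51. The shares of all genes were 1.53% higher and 1.42% lower. Pvalb, the parvalbumin of fast-spiking interneurons, was at 42.8, 63.0 and 3.72 CPM in WT right 1, WT left 1 and WT left 2 against 77.5 to 442 CPM (median 399.7). Vip, at 23.8, 23.8 and 39.0 CPM against 49.9 to 163 CPM, Npy and Lamp5 were the others that were lower. Calb2, the calretinin gene, was at 297, 202 and 173 CPM against 16.3 to 66.8 CPM (median 23.6), and Slc32a1, the vesicular GABA transporter, Dlx6, a homeodomain factor of GABAergic neurons, and Kit, a receptor tyrosine kinase, were higher as well. Gad1, which makes GABA, was at 244, 161 and 147 CPM against 104 to 202 CPM and overlapped, so several subtype genes separated the sets and this enzyme did not.

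Neuropeptide and granule genes had 2 of 31 members higher (Cartpt, a marker, and Resp18) and 3 lower (Npy, Vip and Chgb), with a median of 0.076. Over all genes 1.53% were higher and 1.42% lower. The thalamic list had 2 of 17 higher (Lhx9 and Calb2) and a median of -0.16. Lhx9 was at 19.5, 1.40 and 13.0 CPM in WT right 1, WT left 1 and WT left 2. It had no read in the other 9. Its value in WT left 1 was below the 4.199 CPM that 3 reads were worth there. Part of its 5' end is shared with other genes. Slc17a6, another member, had a difference of -2.11 (log2) but overlapped. WT left 2, at 42.8 CPM, lay within the 14.5 to 131 CPM of the other 9. The striatal list had 1 of 23 higher (Gng7) and 1 lower (Scn4b) and a median of -0.20. Drd2 and Adora2a, which define striatal neurons of the indirect pathway, reached 1.06 and 3.17 CPM in the 3. The medians of both lists were below that of all genes, while the thalamic count of 2 stood beside 1.53% of all genes higher.

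Imprinted genes had 5 of 25 members higher (Ndn, Nnat, Grb10, Plagl1 and Blcap) and 0 lower, with a median of 0.60, beside 1.53% of all genes higher. With spike-in scaling 2 members were higher. Plagl1, an imprinted zinc finger factor, was at 32.2, 37.8 and 46.5 CPM in WT right 1, WT left 1 and WT left 2 against 0 to 9.10 CPM (median 1.96). Grb10, an adaptor that restrains growth factor signalling, was at 65.5, 84.0 and 52.1 CPM against 1.81 to 42.5 CPM. Blcap, whose gene contains Nnat in an intron, was at 296, 330.4 and 239.8 CPM against 79.7 to 154 CPM.

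**Figure D3:**
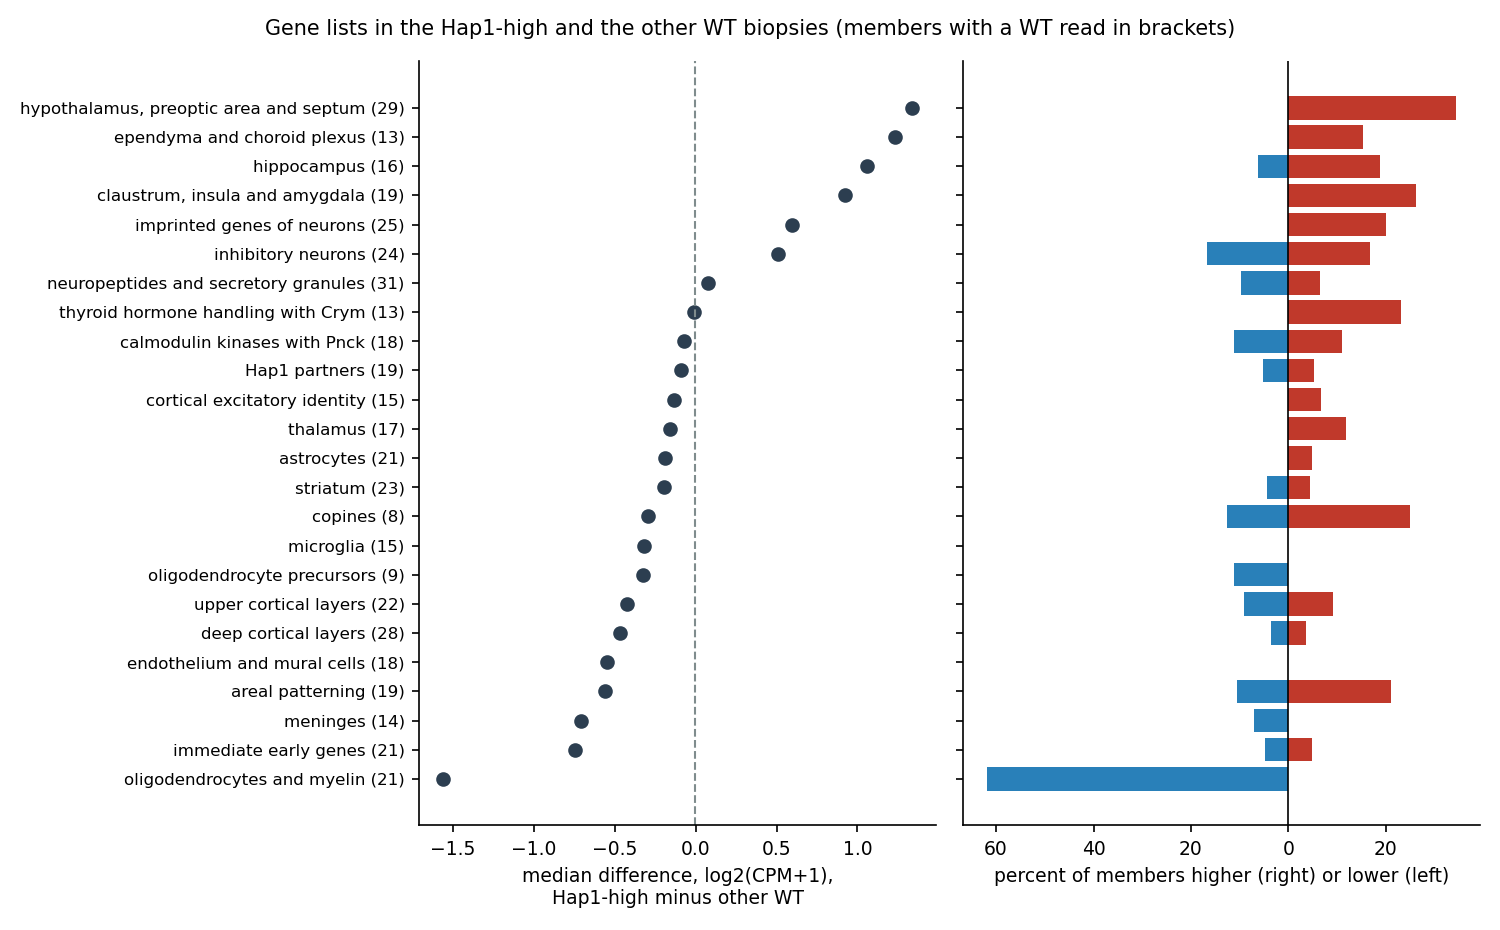
For each gene list with 5 or more members with a WT read (number in brackets), the left panel gives the median difference in log2(CPM+1), Hap1-high minus other WT, with the median of all genes as a dashed line, and the right panel the percent of members higher (red) or lower (blue) without overlap. The hypothalamic list is at 1.34 with 10 of 29 members higher, and the myelin list at -1.56 with 13 of 21 lower.

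The families around single markers did not move as blocks. Of 19 Hap1 partners, which include motors, sorting and vesicle proteins, Ahi1 was higher and Itpr1, the inositol trisphosphate receptor, lower, at 15.3, 9.80 and 50.2 CPM against 74.8 to 184 CPM, and the median was -0.093. Of 18 calmodulin kinase genes, Pnck and Camkv were higher and Camk2g and Camkk2 lower, with a median of -0.075. Camkk2, the kinase that activates the calmodulin kinases I and IV, was at 71.8, 16.8 and 24.2 CPM against 117 to 331 CPM.

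Of 8 copines, Cpne6 and the marker Cpne7 were higher and Cpne9 was lower, with a median of -0.29. For this and the next lists, the shares of all genes were 1.53% higher and 1.42% lower. Cpne6 was at 858, 636 and 309 CPM in WT right 1, WT left 1 and WT left 2 against 67.4 to 194 CPM, the same order as Cpne7, and Cpne9 was at 6.34, 1.40 and 1.86 CPM against 23.5 to 82.3 CPM. Of 13 genes of thyroid hormone handling, 3 were higher, among them Crym and Thra (a thyroid hormone receptor), with a median of -0.012. For Thra, 4 BERKO biopsies were above the lowest of the 3. Of 21 immediate early genes, Jun was higher (369, 307 and 179 CPM against 34.0 to 132 CPM) and Ier5 lower, with a median of -0.75.

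Myelin genes had the lowest median of the lists. Of 21 members, 13 were lower and 0 higher, with a median of -1.56, beside 1.42% of all genes lower. Their summed level was 3348, 4187 and 3792 CPM in WT right 1, WT left 1 and WT left 2, against 6149 to 23055 CPM (median 9839) in the other 9 and 7106 to 25678 CPM in BERKO. Mbp, the myelin basic protein, was at 1325, 1744 and 1865 CPM against 2901 to 8666 CPM, and Mal, a raft protein of compact myelin, was at 135, 151 and 139 CPM against 379 to 1356 CPM. Mog, on the outer face of myelin, was at 31.2, 39.2 and 5.58 CPM against 66.2 to 312 CPM. With spike-in scaling 6 members were lower, and the median was -1.67. The count was 12 to 20 under the other alternatives.

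The next non-neuronal lists had at most 1 member called each, beside 1.53% of all genes higher and 1.42% lower. Oligodendrocyte precursors had 1 of 9 lower (Sox10) and a median of -0.33, astrocytes 1 of 21 higher (Agt) and a median of -0.19, microglia 0 of 15 in either direction and a median of -0.32, and endothelium and mural cells 0 of 18 and a median of -0.55. Meninges had 1 of 14 lower (Fn1) with a median of -0.71, and their summed level ran from 1377 CPM in WT right 1 to 10319 CPM in WT left 2. Of the blood list only Alas2 was measured. It was at 10.0, 178 and 0 CPM in the 3 and at 1.96 to 54.3 CPM in the other 9.

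Genes of ependyma and choroid plexus, which line and border the ventricles, had 2 of 13 members higher (Tmem212 and Rsph1) and 0 lower. Their median was 1.23, and 1.53% of all genes were higher. The summed level of the list was 622, 463 and 115 CPM in the 3. It ran from 21.0 to 398 CPM in the other 9 and from 39.8 to 404 CPM in BERKO. Ttr, the transthyretin of choroid plexus, was at 520.2, 356 and 44.6 CPM against 7.25 to 340.1 CPM, which was most of the sum in the biopsies of WT mouse 1 but not in WT left 2. Folr1, a defining choroid gene, was at 0, 1.40 and 0 CPM and Foxj1, the ciliogenesis factor, at 1.584, 0 and 0 CPM. The part of ventricular lining and of the lower myelin level in the neuronal differences was not tested.

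The 3 biopsies were not alike in every gene. Across genes, WT right 1 and WT left 1, from the same mouse, correlated by 0.84 (log2(CPM+1), Pearson), and each correlated with WT left 2 by 0.79 and 0.77. The other 9 correlated among themselves by 0.79 to 0.89, and pairs across the sets by 0.72 to 0.82, over the same genes and with depths that differ between pairs. Of the 213 higher genes, 157 had WT left 2 within 2-fold of both biopsies of WT mouse 1, while WT left 2 was at least 2-fold above both in 8 and at least 2-fold below both in 11.

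Among the named genes, WT left 2 was above both biopsies of WT mouse 1 for Baiap3, Cartpt, Agt and Slc32a1, and below both for Cpne7, Cpne6, Cd44 and Mas1. Among the low genes it kept more Lamp5, Tshz2, Itpr1 and Fn1 and less Pvalb, Mog, Nrep, Pou3f2, Tmem125 and Sox10 than WT mouse 1. In WT left 2, 1 read was worth 1.86 CPM and 3 reads 5.58 CPM. Tmem125, at 1.06 and 1.40 CPM in WT mouse 1, therefore shows no readable difference from its 0 CPM in WT left 2. Pou3f2, at 3.70 and 8.40 CPM in WT mouse 1, was near that floor too. Some genes outside the count, chosen after their values were seen, differed between WT left 2 and WT mouse 1. Otof, the otoferlin gene, was at 0, 0 and 76.2 CPM against no more than 6.35 CPM in the other 9, and Bcl11b (CTIP2), a factor of striatal and deep-layer neurons, was at 3.17, 8.40 and 79.9 CPM against 10.9 to 43.9 CPM, so the biopsies of WT mouse 1 were below the other 9 and WT left 2 above them. Neurod6 was at 50.2 and 49.0 CPM in WT mouse 1 but had no read in WT left 2.

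**Figure D4:**
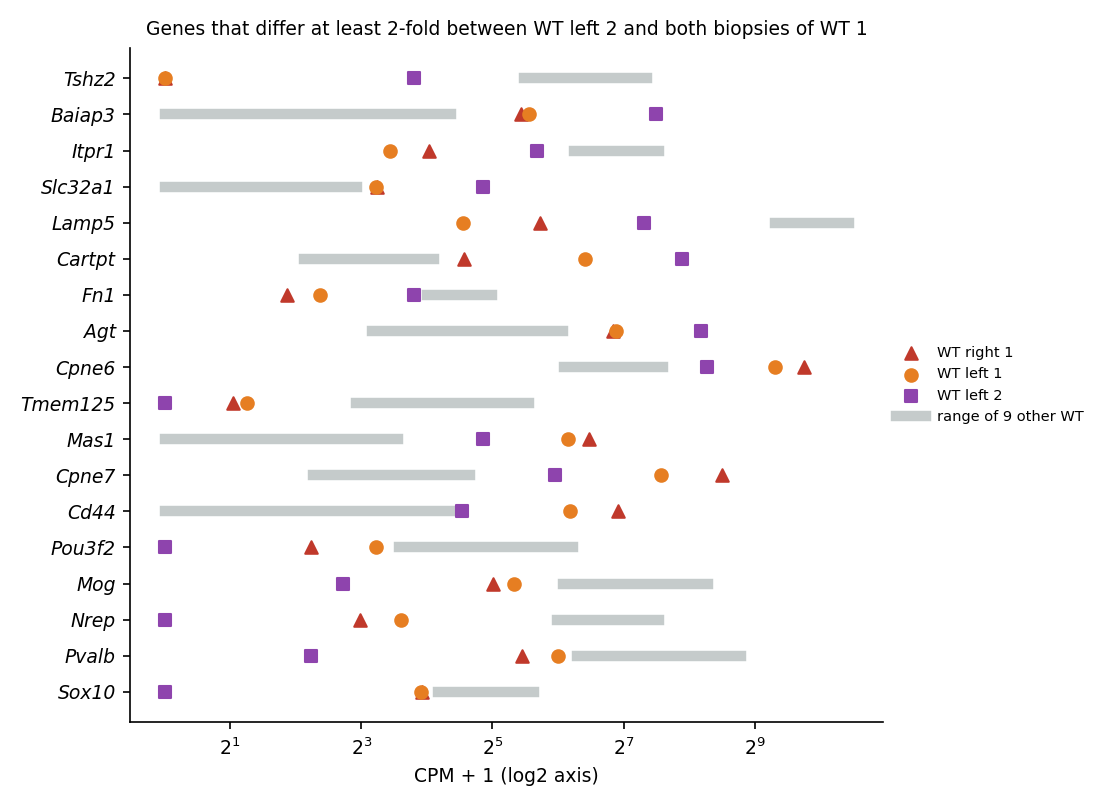
Named genes for which WT left 2 (squares) differed at least 2-fold from both WT right 1 (triangles) and WT left 1 (circles), as CPM + 1 on a log2 axis, with the range of the 9 other WT biopsies as a grey bar. Cartpt runs from 22.7 CPM in WT right 1 to 236 CPM in WT left 2, and Cpne7 from 360.2 CPM down to 61.3 CPM.

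WT mouse 2 gave a comparison within 1 animal, since its left biopsy is Hap1-high and its right biopsy is not. Hap1 was at 457 CPM on the left and 16.6 CPM on the right. The 213 higher genes had a median left minus right difference of 1.65 (log2) in this mouse and the 197 lower genes one of -2.15, beside -0.0079 over 8398 genes of 10 or more CPM. These differences reuse libraries that chose the sets and are a description. Mal was at 1356 CPM in the right biopsy of this mouse, the highest of all WT biopsies, and at 139 CPM in the left.

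The side, which the labels give, was tested over all WT mice. Left against right, with the mouse as a block, called 0 of 7703 genes (0%) at an adjusted p under 0.05 by edgeR's quasi-likelihood test with Benjamini-Hochberg adjustment, with 330 genes at an unadjusted p under 0.05. DESeq2 called 5 genes. Hap1 had a left over right log2 fold change of 0.97 ± 0.60 (SE, adjusted p = 1), Lamp5 one of -0.56 ± 0.25 and Cartpt one of 0.78 ± 0.67, none of which passed. Without the 3 biopsies and, at the same time, without the mouse block, 0 of 8079 genes were called (0%), and 371 were at an unadjusted p under 0.05.

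The BERKO biopsies were not used by the rule. Of the 213 higher genes, 135 (63.4%) had all 10 BERKO biopsies below the lowest of the 3. Of the 197 lower genes 104 (52.8%) had all 10 above the highest of the 3. These genes were picked because the 3 lay beyond the other 9 WT biopsies, which favours high shares in BERKO as well. No share over all genes or over another split was computed beside them, so nothing is read from these percentages. Over the 10 BERKO biopsies, 2 from each of 5 mice, the higher genes of 10 or more CPM had a median Pearson r with Hap1 of -0.081 and the lower genes one of 0.046, beside -0.020 for all genes of that level. Over the 9 other WT biopsies these medians were -0.017, 0.034 and 0.0034. These medians were close to those of all genes. In BERKO, every other marker that was high in the 3 had a negative r with Hap1. The values were -0.47 for Pnck, -0.19 for Crym, -0.46 for Zcchc12, -0.74 for Cpne7 and -0.57 for Cartpt. In the other WT biopsies they were -0.15, -0.32, 0.12, 0.47 and -0.83 in the same order. The markers thus did not rise with Hap1 among the BERKO biopsies, where Hap1 ran only from 22.1 to 62.7 CPM. Neither these biopsies nor the 9 other WT biopsies reached the Hap1 threshold. The r values therefore cannot show how the markers go with Hap1 where it is high.

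Since all 3 biopsies are WT, they enter the comparison of genotypes on one side. With both sides of a mouse summed, 7 of 9025 genes differed between 5 BERKO and 6 WT mice (0.0776%, edgeR quasi-likelihood test, Benjamini-Hochberg adjusted p under 0.05), and none was among the 8 markers. Hap1 had a BERKO over WT log2 fold change of -1.46 ± 0.78 (SE, adjusted p = 0.569), Zcchc12 one of -1.54 ± 0.48 (adjusted p = 0.314) and Cpne7 one of -2.69 ± 1.19 (adjusted p = 0.503). All 6 markers that were high in the 3 biopsies had negative values of this kind, from -1.31 for Pnck to -2.69 for Cpne7.

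Leaving out the 3 biopsies, which drops WT mouse 1 and keeps only the right side of WT mouse 2, moved these values towards 0. Hap1 became 0.35 ± 0.31, Pnck -0.27 ± 0.18, Crym -0.10 ± 0.46, Zcchc12 -0.33 ± 0.41, Cpne7 -0.23 ± 0.56 and Cartpt -0.22 ± 0.58. Since the biopsies were left out for their Hap1 level, the move of Hap1 follows from the choice. Only the WT side was cut in this way, so the value of Hap1 without them is no test of that gene. The other markers were chosen with their values in these same biopsies known, so their moves are no independent evidence either. Lamp5 went from 0.23 ± 0.63 to -0.085 ± 0.16 and Tshz2 from 0.72 ± 0.81 to 0.34 ± 0.40. The standard error was smaller without the 3 biopsies for each of the 8 markers, which the choice of biopsies and markers also favours. Without them 6 of 8436 genes were called (0.0711%), and again none of the 8 markers.

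**Figure D5:**
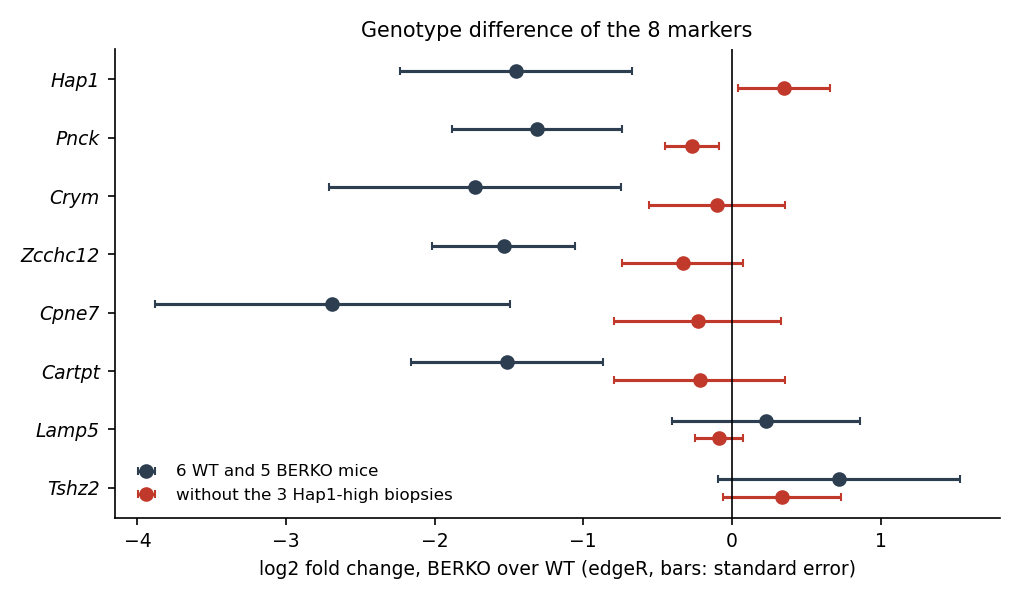
BERKO over WT log2 fold change of the 8 markers from edgeR, with standard errors, over all 11 mice (dark) and without the 3 Hap1-high biopsies (red). Cpne7 moves from -2.69 to -0.23 and Hap1 from -1.46 to 0.35, and no marker passes the adjusted threshold in either fit. The red value of Hap1 is no test of it, since its level chose the biopsies left out.

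Depth did not separate the sets. Gene reads ran from 537922 to 1893400 in the 3, which included the shallowest and the deepest WT biopsy, from 551905 to 1530561 in the other 9 and from 239058 to 948140 in BERKO. Reads in upstream and 5' UTR features made up 81.7% to 87.1% of gene reads in the 3 and 78.6% to 86.7% in the other 9. Mitochondrial genes held 1.48% to 2.03% and 0.876% to 2.10%, and spike-ins 0.119% to 0.271% and 0.122% to 0.278% of reads. With reads thinned to 537922 per biopsy, 188 genes were higher and 168 lower, of which 156 and 148 were among the 213 and 197.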

How the data were processed

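The deposited values are raw counts of reads for every 5' end feature in each lane of each biopsy, with an annotation of position (mm9), strand, class and gene symbol. Per the submitters' processing notes, Bowtie, TopHat2 2.0.12 and build mm9 were used, and the way features were delimited was not stated in any source at hand. Lanes, read from a digit in the column names, were summed, and the 95410 features with a single symbol were summed to 15297 genes; other features held 5.22% of endogenous reads. The counts are reads after PCR, so floors cover counting error only. CPM was taken over gene reads, and log2(CPM+1) was used for differences, which understates those of low genes.

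Column names end in a digit, taken here for the number of the mouse. The labels tie a left and a right biopsy to each mouse, and the right and left biopsies of a mouse had correlations of -0.13 to 0.35 over 7703 genes, computed on deviations from each side's mean. Left against right had the mouse as a block, and genotypes were compared on sums per mouse, with edgeR 4.0.16 (robust quasi-likelihood, TMM, default filter, two-sided) in R 4.3.3. DESeq2 1.42.0 was an alternative. Standard errors are the log2 fold change over the square root of F. The scripts were tested on simulated data.

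The 3 biopsies, the markers and the gene lists were chosen with earlier results of these data known. Named genes are the 8 markers; of non-overlapping genes with a mean of 20 or more CPM in the higher set, the 20 most higher and 12 most lower; and up to 4 members of each list with a mean of 10 or more CPM. Any other gene in the text was picked with its values in view. Of 66 named genes without overlap, 11 shared a stretch of their first 200 transcript bases (GENCODE) with another gene. The stretch was 50 or more bases at 95% or higher identity, so reads from it are uncertain. The genes were 9130024F11Rik, Fn1, Gm2694, Itpr1, Lhx9, Neurod1, Nr2f2, Nrep, Pou3f1, Slc32a1 and Tshz2. Most WT reads of Pou3f1 (95.2%) came from a 3' UTR feature and most of Tshz2 (85.0%) from a coding sequence feature. Whether the sharing covers these features was not tested. Some list members are not reported here.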

Additional observations from a re-analysis of the deposited data

Results flagged for a closer look

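In 132 sets of values (66 named genes, each in the 9 other WT and in the 10 BERKO biopsies), 21 had 1 biopsy far from the rest by Dixon's criterion, which chance gives in about 1 of 20 sets; a gene read in few biopsies meets it easily. None concerns the 3 Hap1-high biopsies, a set too small for it.

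Among genes higher in the Hap1-high biopsies, single BERKO biopsies stood high for Col25a1 (36.6 CPM, BERKO right 3), Meig1 (22.7 CPM, BERKO left 3), Lhx9 (12.8 CPM, BERKO left 4), AW551984 (11.3 CPM, BERKO left 3), Fibcd1 (9.82 CPM, BERKO left 2) and Gpr101 (7.37 CPM, BERKO left 6), each beside a BERKO median of 0. Single BERKO biopsies stood low for Pnck (53.1 CPM, BERKO left 6), Nnat (13.4 CPM, BERKO right 3) and Tmem255a (0 CPM, BERKO left 4). Cartpt (3.36 CPM, WT left 3) and Grb10 (1.81 CPM, WT left 6) were low in 1 of the other WT biopsies.

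Among genes lower in the Hap1-high biopsies, WT right 5 stood low for Pvalb (77.5 CPM beside a median of 399.7 CPM) and Scn4b (14.2 CPM). Gm2694 (4.99 CPM, WT right 6) and Tmem125 (6.53 CPM, WT right 3) were low, and Itpr1 (184 CPM, WT right 3) and Sox10 (48.8 CPM, WT right 2) were high. In BERKO, Tshz2 (15.9 CPM, BERKO right 3), 9130024F11Rik (0 CPM, BERKO left 2), Gm2694 (0 CPM, BERKO left 4) and Fn1 (6.96 CPM, BERKO right 4) were low.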

How the results depend on the processing

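The 213 higher and 197 lower genes became 110 and 134 with spike-in scaling and 137 and 131 with a 3-fold minimum. Without both biopsies of WT mouse 1, which leaves 1 biopsy against 9, they were 1245 and 1153, and within WT mouse 2 alone 2252 and 3366, where fewer samples make no overlap easier to reach. Leaving out 1 biopsy at a time gave 222 to 478 higher and 204 to 447 lower genes, with the largest counts without WT right 1 (346 and 447), WT left 1 (426 and 260) and WT left 2 (478 and 335). Of 1320 recomputed differences of 66 named genes, 1167 stayed within 1 SD of the other 9 biopsies, 153 moved further and 0 changed sign.

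Left against right called 5 of the 695 genes given an adjusted p by DESeq2 and 10 without the filter on low counts, and 0 when each mouse was left out in turn, without the replicate block, and without both the block and the 3 biopsies. BERKO against WT, 7 genes, had 34 with DESeq2, 14 without the filter, 45 with spike-in scaling and 11 with the mouse number as a replicate block. Leaving out 1 mouse gave 1 (without BERKO mouse 3) to 18 (without WT mouse 4) genes. The cause of these moves was not tested. The genotype difference of Hap1 turned to 0.35 without the 3 biopsies, and that of Lamp5 to -0.085 without them; leaving out 1 mouse gave Lamp5 values from -0.026 (without WT mouse 1) to 0.44 (without WT mouse 6). Pairing by number across genotypes rests on the number alone.

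The Hap1-high set is 3 libraries of 2 mice, and 3 reads were worth up to 5.577 CPM in it, so absence of a low gene was not detectable.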

Other observations

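Other genes without overlap between the Hap1-high and the other WT biopsies belong to none of the region lists. Tmem255a, a transmembrane protein, was at 93.5, 160 and 89.2 CPM in WT right 1, WT left 1 and WT left 2 against 5.29 to 11.7 CPM in the other 9 and 0 to 12.8 CPM in BERKO. Fam183b was at 67.6, 58.8 and 31.6 CPM against 0 to 6.62 CPM. In the other direction, Nrep, a neuronal regeneration related protein, was at 6.87, 11.2 and 0 CPM against 62.4 to 184 CPM, and Npnt, the matrix protein nephronectin, was at 5.28, 0 and 0 CPM against 16.6 to 47.4 CPM. All 10 BERKO biopsies lay on the side of the other WT biopsies for Tmem255a, Fam183b and Nrep, and 9 of 10 did for Npnt.

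Kcnip2, a subunit of transient potassium channels, was higher in the 3 (98.8, 32.2 and 26.0 CPM against 3.62 to 25.1 CPM), but its separation in WT left 2 was under 1 CPM and 4 BERKO biopsies were above it. Sst, the somatostatin precursor, overlapped, at 785, 539 and 586 CPM against 184 to 742 CPM.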
